A study of Mus musculus with 4 samples.

Results

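The genes described here repair broken and crosslinked DNA by homologous recombination and the Fanconi pathway. A list of 39 genes named for these roles was matched to array rows whose platform annotation held exactly 1 gene symbol, and 34 of the 39 had such a row among 30145 genes. Rad51d, Rad54b and Atrip were found only in rows that carried several symbols, and Xrcc2 and Rbbp8 were not analysed here. Outgrowths grown from mouse blastocysts, either wild-type or Tip110-/-, supplied the RNA, with 2 arrays per genotype. Blastocysts were collected at 3.5 days post coitum after matings of Tip110+/- mice and were cultured one by one, untreated, over 4 to 6 days in a stem cell medium that holds knockout serum replacement. Replicate 1 of each genotype was a pool of 3 outgrowths and replicate 2 was a single outgrowth. Tip110 is encoded by Sart3, and how the mutant allele was made is not given in the sources used here.

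In homologous recombination, the MRE11-RAD50-NBN complex and its partners trim a broken DNA end to a single strand, BRCA1 and its partner PALB2 bring BRCA2, and the repair then copies from an intact duplex. The Fanconi pathway acts when the strands are crosslinked: a core complex of FANC proteins attaches ubiquitin to the FANCI-FANCD2 pair, which directs nucleases and recombination to the lesion. The kinases ATM and ATR signal damage and stalled forks to CHK2 and CHK1. Early embryos and pluripotent cells divide fast with short gap phases and depend on recombination during replication.

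All signals are log2 values as deposited. The array median over all genes was 4.21 and 4.22 for wild-type and 4.45 and 4.32 for Tip110-/-, so a value near these levels may hold little transcript signal, and a difference that ends there understates the change. The RNA yield per outgrowth was 249 and 178 pg for wild-type and 55.0 and 144 pg for Tip110-/-, lower in both mutant arrays, and the effects of yield and genotype cannot be told apart. Sart3 read 4.94 and 5.98 in wild-type against 4.28 and 4.54 in Tip110-/-, lower in both mutant arrays (difference -1.05 ± 0.39 SE, limma adjusted p = 0.387). Where its probes lie relative to the mutation is not known, so this is a limited check of the labels. In bulk RNA, fewer cells of a type and less RNA per cell cannot be told apart.

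Where the genotypes stood apart, repair genes of this list had lower signal in the Tip110-/- outgrowths and none had higher signal. Histone H2afx, the BRCA2 gene, and Fancm and Fanca of the Fanconi pathway differed most clearly, by -3.63, -2.99, -2.12 and -1.38 on the log2 scale. At an unadjusted p under 0.05 in limma, 10 of the 34 genes with a row were lower, 0 were higher and 24 did not pass; over all genes 3.67% were lower and 8.99% higher at that mark. When a 2-fold difference was required too, 7 members were lower and 0 higher, against 3% and 1.53% of all genes. Many genes of the table are dim: among protein-coding genes above the median row of the table, 7.21% were lower and 3.84% higher, and 10 of the 32 members there were lower, or 31.2%.

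No member passed Benjamini-Hochberg adjustment over all genes, and 0 genes of the whole table did (3816 at an unadjusted p under 0.05). The limma adjusted p of the 10 members ran from 0.318 to 0.384. In 6 of the 10 both mutant values were below the gene median or less than 1 unit above it. These were Palb2, Rad50, Fanca, Fancb, Fancd2 and Atr. Both Tip110-/- arrays lay below both wild-type arrays in 19 of the 34 members, where 12.9% of all genes did, and above both in 0 members, where 39.9% of all genes did. The shares over all genes depend on the scaling: they were 21.2% lower and 21.1% higher after quantile normalization, 23.9% and 17.6% with arrays centred on their gene median, and 22% and 20.3% after cyclic loess, where 24, 27 and 25 members were lower without overlap and 0 higher. The fitted difference was negative in 33 members and positive in 1, with a median of -0.74 beside 0.15 for all genes. On the arrays themselves, the median member signal stood at 5.38 and 5.64 for wild-type, against 4.86 and 4.71 for Tip110-/-. The count of 10 changed when an array was left out. A fit on fewer arrays has less power, so a lost mark need not mean reliance on the array removed. Rad50 differed by -0.74 with all arrays, and by -0.74 and -0.75 without the mutant pool or the single mutant outgrowth. For Palb2 these values were -1.35, -1.37 and -1.32. The mutant values of each gene were nearly equal and near the gene median, so leaving 1 out could hardly move the difference. Leaving out a wild-type array did move it. Without the single wild-type outgrowth the differences of Rad50 and Palb2 shrank to -0.56 and -0.68, and without the wild-type pool they grew to -0.92 and -2.01. Without the single Tip110-/- outgrowth 4 members were lower, and of the 10 these kept Fanca and H2afx, with 2.86% of all genes lower. Without the single wild-type outgrowth 6 were lower, among them 5 of the 10: Brca2, Fanca, Fancm, Fancd2 and H2afx, with 3.56% of all genes lower. Palb2, Rad50, Fancb and Atr kept the unadjusted mark only when the array left out was the wild-type pool, and Brca2 and Fancm lost it only without the single Tip110-/- outgrowth.

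**Figure D1:**
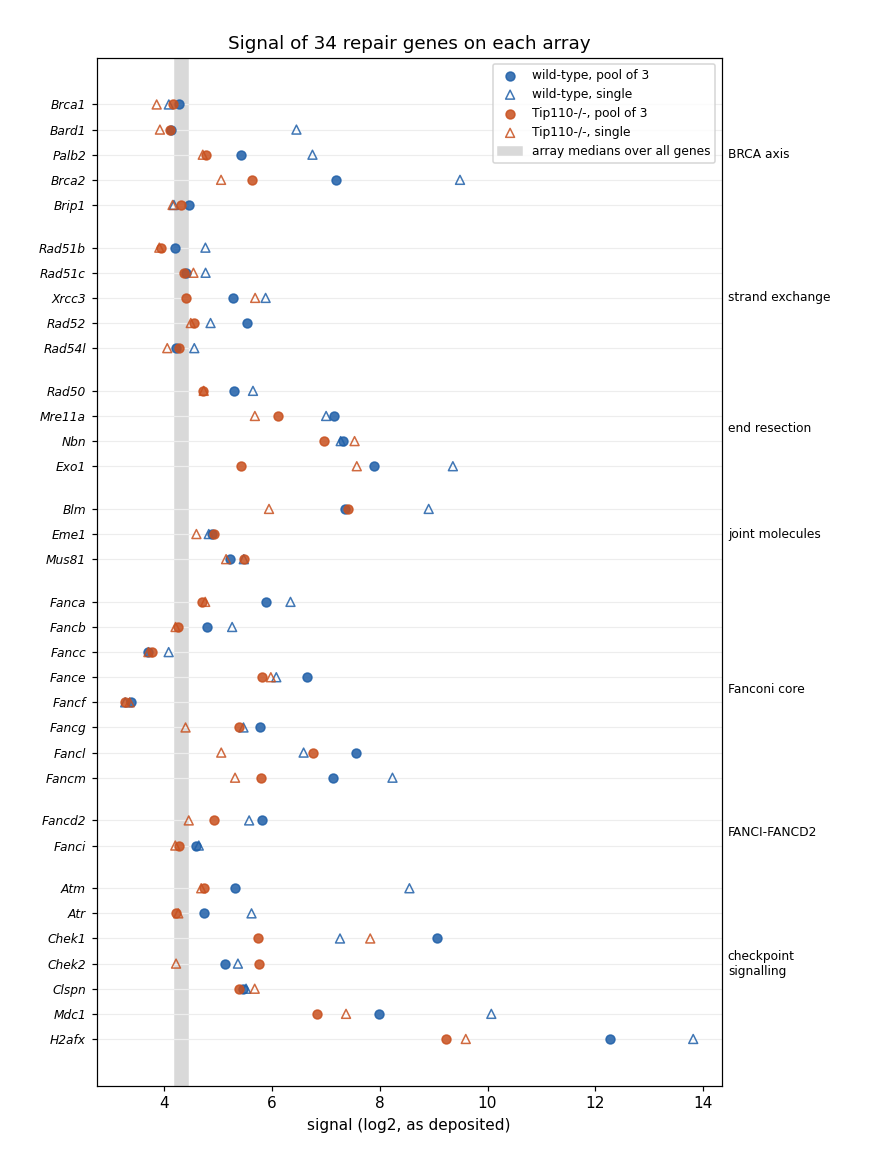
Signal (log2, as deposited) of each of the 34 measured genes on the 4 arrays, grouped by role; blue is wild-type and orange Tip110-/-, filled circles are pools of 3 outgrowths and open triangles single outgrowths, and the grey band spans the array medians over all genes. In 19 genes both orange symbols lie to the left of both blue ones, and 9 genes stay within 1 log2 unit above the array medians, or below them, on all 4 arrays.

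Upstream sequences are shown for 4 members whose genotypes did not overlap and whose difference reached 2-fold, because genes of one pathway can share promoter elements. Palb2, Mre11a, Fancm and Atm met the same rule and are not shown: Bard1, Brca2 and Mdc1 were chosen because their windows hold the E2F word described next, and none of those 4 windows does. E2F factors, which drive genes at the start of DNA synthesis, bind words such as TTTGGCGC, TTTCCCGC, TTTGCCGC and TTTCGCGC. These 4 words were searched on both strands in the 250 bases before the RefSeq start site. Of the 34 members 29 had a window (not Rad50, Nbn, Exo1, Fancd2 and H2afx), and 5 of the 29 held a word (Bard1, Brca2, Chek2, Fancg and Mdc1), or 17.2%, against 2.72% of 17491 protein-coding genes. The word was present in 1 of 7 members lower at the unadjusted mark and in 4 of the other 22. The windows of Bard1 (chr1:71102973-71103222, minus strand), Brca2 (chr5:150522371-150522620, plus strand) and Mdc1 (chr17:35841248-35841497, plus strand) are written 5′ to 3′ from RefSeq on GRCm38.p6, with the E2F word in capitals, which on Brca2 stands on the opposite strand and so reads as its reverse complement.
Bard1: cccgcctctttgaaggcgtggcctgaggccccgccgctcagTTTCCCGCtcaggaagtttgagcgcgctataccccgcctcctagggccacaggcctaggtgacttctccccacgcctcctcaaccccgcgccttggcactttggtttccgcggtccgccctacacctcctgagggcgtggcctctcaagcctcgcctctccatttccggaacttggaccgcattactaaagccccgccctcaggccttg
Brca2: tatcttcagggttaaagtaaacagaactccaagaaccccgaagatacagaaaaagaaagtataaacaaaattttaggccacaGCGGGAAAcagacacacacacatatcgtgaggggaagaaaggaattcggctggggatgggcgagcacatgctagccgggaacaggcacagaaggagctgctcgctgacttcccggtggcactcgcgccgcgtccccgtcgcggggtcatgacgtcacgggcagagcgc
Mdc1: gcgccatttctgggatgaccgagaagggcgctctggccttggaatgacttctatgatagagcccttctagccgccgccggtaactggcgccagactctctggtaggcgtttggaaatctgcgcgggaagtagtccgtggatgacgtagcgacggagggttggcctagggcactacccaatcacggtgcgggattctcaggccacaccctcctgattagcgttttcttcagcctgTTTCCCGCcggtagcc
Fanca, which had no E2F word, held 2 CCAAT boxes, the words bound by NF-Y, shown in capitals in its window (chr8:123318577-123318826, minus strand).
Fanca: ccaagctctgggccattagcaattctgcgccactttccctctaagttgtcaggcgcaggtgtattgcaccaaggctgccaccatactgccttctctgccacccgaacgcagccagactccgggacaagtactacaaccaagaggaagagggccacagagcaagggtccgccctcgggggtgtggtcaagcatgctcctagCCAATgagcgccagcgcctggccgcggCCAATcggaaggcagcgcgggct
CCAAT on either strand was in 17 of the 29 windows, 58.6%, and in 39.5% of protein-coding genes. It was in 4 of 7 members lower at the unadjusted mark and in 13 of the other 22, or 57.1% and 59.1%. The window of Mre11a, not shown, also held 2. The cell cycle words TTTGAA and TTCGAA were in 2 of the 29, Atr and Bard1, 6.9% against 18.4%. A match is a description of the letters and does not show that a factor binds there.

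Within the BRCA axis 2 of 5 members were lower at the unadjusted mark, 3 had no overlap and none was higher. Brca2, a central mediator of recombination, was at 7.18 and 9.49 in wild-type and at 5.64 and 5.06 in Tip110-/-. Both mutant arrays lay below both wild-type arrays, the higher wild-type value being that of the single outgrowth. The difference was -2.99 ± 0.83 (SE; limma unadjusted p = 0.016, adjusted p = 0.344), 7.92-fold lower; it was -1.83 without the single wild-type outgrowth and -4.14 without the wild-type pool. Palb2, the bridge from BRCA1 to BRCA2, was at 5.43 and 6.76 in wild-type and at 4.78 and 4.73 in Tip110-/-, again with no overlap. It differed by -1.35 ± 0.48 (limma adjusted p = 0.384), by -0.68 without the single wild-type outgrowth and by -2.01 without the wild-type pool. Bard1, the ubiquitin ligase partner of BRCA1, was at 4.13 and 6.46 in wild-type and at 4.11 and 3.93 in Tip110-/-. Only the single wild-type outgrowth stood above the others: the difference of -1.27 ± 0.76 (limma adjusted p = 0.453) became -0.11 without it. Brca1 itself, at 4.28 and 4.10 against 4.17 and 3.87, and the helicase gene Brip1, at 4.47 and 4.19 against 4.33 and 4.17, stayed near the gene median on every array and overlapped between genotypes, so their rows could show little of a change.

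End resection was divided. Mre11a, the nuclease that opens the trimming of an end, was at 7.16 and 7.01 in wild-type and at 6.12 and 5.69 in Tip110-/-. The groups stood apart, with replicates 0.15 apart in wild-type and 0.43 apart in Tip110-/-, and the difference was -1.18 ± 0.36 (limma unadjusted p = 0.023, adjusted p = 0.354). Rad50, the long coiled partner of MRE11, was at 5.30 and 5.66 in wild-type and at 4.73 and 4.74 in Tip110-/-. It differed by -0.74 ± 0.24 (limma adjusted p = 0.364) with no overlap. Nbn, the third protein of that complex, was at 7.32 and 7.28 in wild-type and at 6.98 and 7.54 in Tip110-/-. Its mutant values lay on either side of wild-type, and the 95% interval of its difference, from -1.16 to 1.07, left room for a change of the size seen in Rad50. Exo1, the nuclease of long-range resection, was at 7.89 and 9.36 in wild-type and at 5.44 and 7.58 in Tip110-/-. The groups did not overlap, yet replicates of each genotype differed by more than 1 unit, and the difference of -2.11 ± 0.92 did not pass (limma unadjusted p = 0.069, adjusted p = 0.400). Without the mutant pool it was -1.05, without the single mutant outgrowth -3.18, and without the single wild-type outgrowth -1.38.

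Genes of strand exchange gave no member past the unadjusted mark, with 5 of 8 measured. Rad52, a mediator of strand annealing, was at 5.55 and 4.87 in wild-type and at 4.57 and 4.50 in Tip110-/-, and Rad51b was at 4.21 and 4.77 and at 3.96 and 3.92. Both mutant arrays lay below both wild-type arrays for each gene, with differences of -0.67 and -0.55, neither past the unadjusted mark. Rad51c and Rad54l, the latter a DNA translocase, overlapped between genotypes and lay within 1 unit of the gene median on all arrays. Xrcc3, a recombination gene, was at 5.29 and 5.89 in wild-type but at 4.41 and 5.70 in Tip110-/-, so that 1 mutant array was low and the other was not. The median difference of these 5 genes was -0.54.

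Enzymes that take apart joined DNA molecules did not separate the genotypes. Blm, the Bloom helicase that dissolves crossed strands, was at 7.36 and 8.91 in wild-type and at 7.42 and 5.95 in Tip110-/-. The pools were alike and the single outgrowths differed by -2.96, so the fitted difference of -1.45 ± 0.79 did not pass (limma adjusted p = 0.437). The nuclease genes Mus81, at 5.23 and 5.49 against 5.49 and 5.16, and Eme1, at 4.90 and 4.84 against 4.94 and 4.61, overlapped. Their 95% intervals ran from -0.72 to 0.65 and from -0.65 to 0.47.

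Within the Fanconi core complex 3 of 8 members were lower at the unadjusted mark, 5 had no overlap and none was higher. Fanca, a core subunit, was at 5.89 and 6.35 in wild-type and at 4.72 and 4.77 in Tip110-/-. Both mutant values were more than 1 unit below both wild-type values, a difference of -1.38 ± 0.28 (limma unadjusted p = 0.004, adjusted p = 0.324), 2.60-fold lower. The mutant values also lay within 1 unit of the gene median, so their near equality says little of the spread between replicates. Fanca was lower at the unadjusted mark under all 13 other settings tried, as H2afx was. Fancm, the DNA translocase that anchors the core complex on chromatin, was at 7.13 and 8.24 in wild-type and at 5.81 and 5.32 in Tip110-/-. Its genotypes stood apart by more than 1 unit, and the difference was -2.12 ± 0.51 (limma unadjusted p = 0.009, adjusted p = 0.334). Fancb, an X-linked subunit of the catalytic module, was at 4.80 and 5.27 in wild-type and at 4.26 and 4.22 in Tip110-/-. It differed by -0.80 ± 0.23 (limma adjusted p = 0.345), ending just below the gene median in both mutant arrays.

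The other core subunits were less clear. Fancg, at 5.79 and 5.48 against 5.39 and 4.41, and Fance, at 6.67 and 6.09 against 5.83 and 5.99, were lower without overlap but did not pass. Fancl, the ubiquitin ligase of the complex, was at 7.57 and 6.59 in wild-type and at 6.77 and 5.07 in Tip110-/-. Its ranges overlapped, with the pool above the single outgrowth in each genotype, and the difference was -1.16 ± 0.70. Fancc and Fancf, also subunits of the core, were at or below the gene median on every array and differed by -0.15 and -0.01.

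Of the ubiquitinated pair, Fancd2 was at 5.83 and 5.58 in wild-type and at 4.94 and 4.47 in Tip110-/-. The genotypes stood apart and the difference was -1.0 ± 0.28 (limma unadjusted p = 0.015, adjusted p = 0.343). Its partner Fanci, at 4.59 and 4.65 against 4.29 and 4.22, was also lower without overlap but close to the gene median, and its difference of -0.37 ± 0.16 did not pass (limma unadjusted p = 0.071, adjusted p = 0.402).

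**Figure D2:**
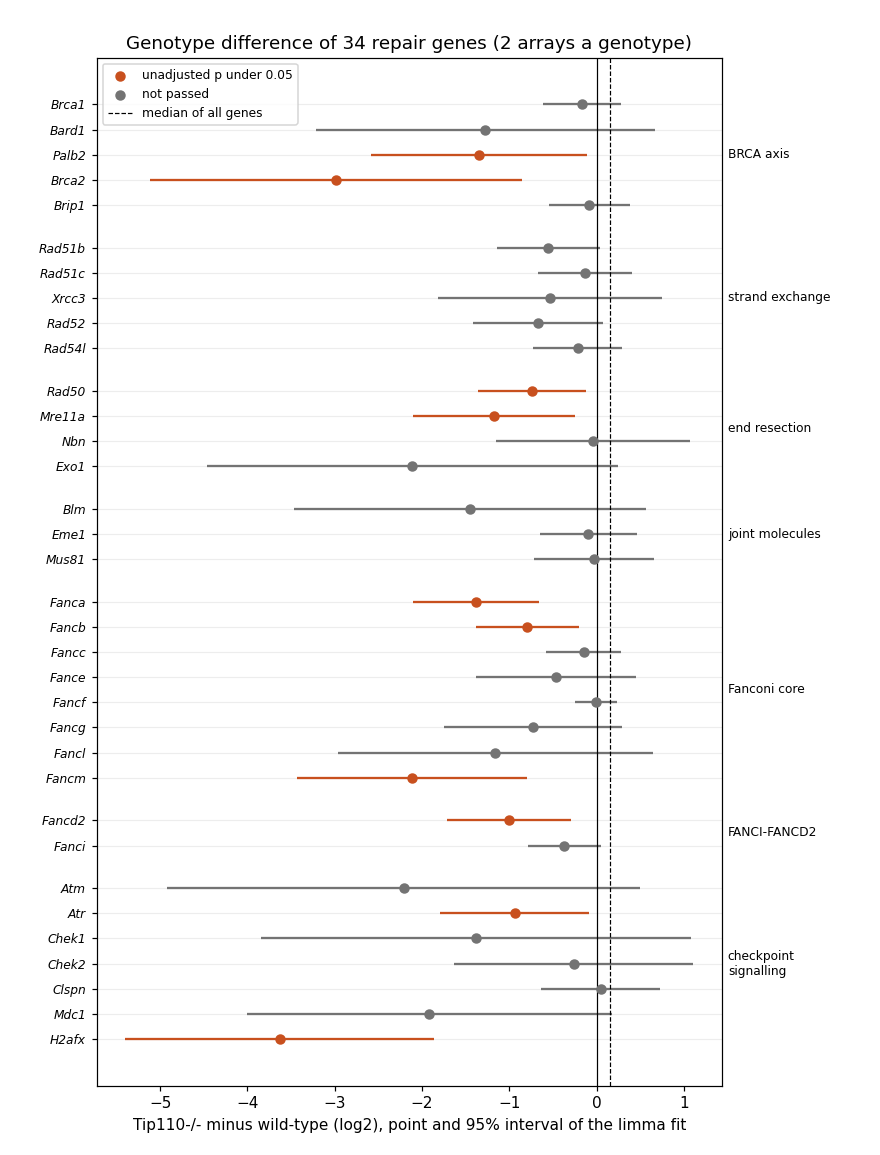
Fitted difference, Tip110-/- minus wild-type (log2), of the 34 measured genes by role, with the 95% interval of the limma fit on 2 arrays per genotype; orange marks an unadjusted p under 0.05, and the dashed line is the median of all genes at 0.15. In all 10 orange genes the interval lies below 0, from H2afx at -3.63 to Rad50 at -0.74, while 24 intervals include 0.

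Damage signalling held the member with the largest difference. H2afx, now named H2ax, encodes the histone variant that is phosphorylated around breaks; it was at 12.27 and 13.81 in wild-type and at 9.23 and 9.60 in Tip110-/-. More than 2 units separated the lowest wild-type from the highest mutant value, and the difference was -3.63 ± 0.69 (limma unadjusted p = 0.003, adjusted p = 0.318), 12.4-fold lower. Transcripts of related histone genes can reach the same probes, so the row may not be of H2afx alone. Mdc1, the adaptor that binds the phosphorylated histone, was at 7.98 and 10.07 in wild-type and at 6.85 and 7.38 in Tip110-/-. It was lower in both mutant arrays, but wild-type replicates lay 2.09 apart and the difference of -1.92 ± 0.82 did not pass (limma unadjusted p = 0.065, adjusted p = 0.399). It was -0.87 without the single wild-type outgrowth and -2.96 without the wild-type pool.

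Among the kinases, Atr, which responds to stalled forks, was at 4.75 and 5.63 in wild-type and at 4.22 and 4.27 in Tip110-/-. There was no overlap, and it differed by -0.94 ± 0.33 (limma unadjusted p = 0.037, adjusted p = 0.381), ending near the gene median; without the single wild-type outgrowth the difference was -0.50. Atm, which responds to breaks, was at 5.32 and 8.55 in wild-type and at 4.76 and 4.70 in Tip110-/-. The single wild-type outgrowth alone stood far above the rest: the difference was -2.21 ± 1.06 (limma adjusted p = 0.415), -0.60 without that array and -3.83 without the wild-type pool. Chek1, the kinase downstream of ATR, was at 9.07 and 7.27 in wild-type and at 5.75 and 7.83 in Tip110-/-. Its order was opposite in pools and single outgrowths, -3.32 and 0.56, and the ranges overlapped. Chek2, downstream of ATM, was at 5.15 and 5.38 against 5.76 and 4.23, higher in the mutant pool and lower in the single mutant outgrowth. Clspn, the adaptor that links ATR to CHK1, was the 1 member with a positive difference, 0.05 ± 0.26, at 5.47 and 5.53 against 5.40 and 5.69.

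The members varied within genotype as well. In wild-type, 10 of 34 differed by more than 1 unit between the pool and the single outgrowth, and in 9 of these the single outgrowth was the higher, by up to 3.23 in Atm. In Tip110-/- 6 differed by more than 1 unit. No member reached an unadjusted p of 0.05 when pools were compared with single outgrowths in limma (smallest unadjusted p = 0.064), where 460 of 30145 genes did. That fit held no genotype term, so the genotype difference of a gene counted as error. It is therefore a weak check of the members that differed by genotype. Between pools alone 28 members were lower in Tip110-/-, at a median of -0.53, and between single outgrowths 30 were lower, at a median of -0.98. In 24 members the mutant was lower in both, where 17.1% of all genes were, and in the other 10 the directions were opposite. These pairs match by pool size only, with 1 array on each side.

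**Figure D3:**
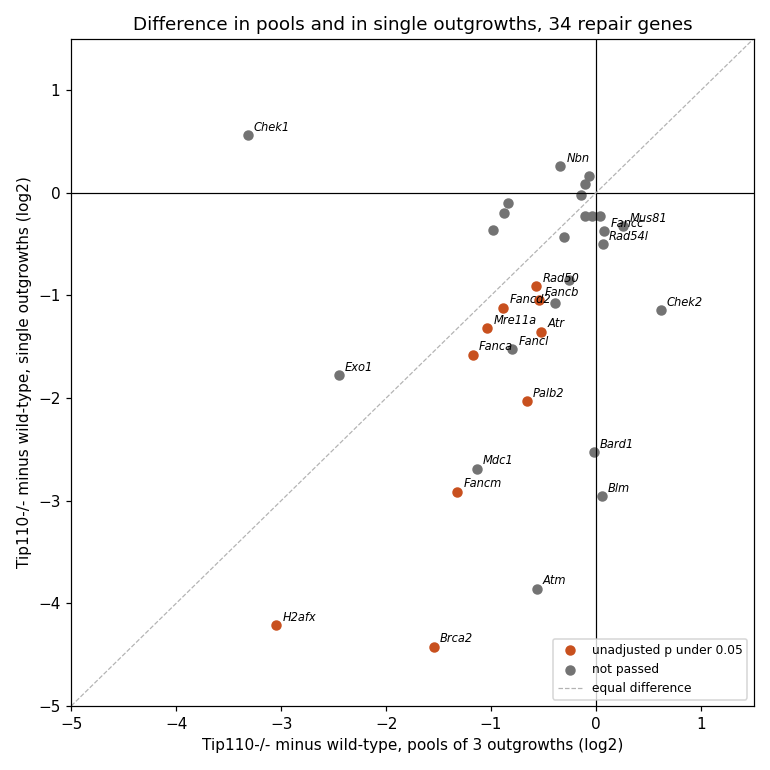
Difference between Tip110-/- and wild-type (log2) in the pools of 3 outgrowths (horizontal axis) and in the single outgrowths (vertical axis), 1 point for each of 34 genes and 1 array on each side of each difference; the dashed line marks equal differences. The 10 genes at an unadjusted p under 0.05 (orange) lie below 0 on both axes, and Bard1 and Blm differ almost only in the single outgrowths.

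Further genes of the same pathways were mostly not past the unadjusted mark, where 3.67% of all genes were lower and 8.99% higher. Of 28 other genes of recombination and crosslink repair, 3 were lower at the unadjusted mark, 0 higher and 25 did not pass, with a median of -0.18. The 3 were Ercc1, subunit of the nuclease that unhooks crosslinks, at 7.39 and 7.59 against 6.22 and 6.11 (difference -1.33 ± 0.37), the single-strand binding subunit Rpa3 at -1.52 ± 0.56 and the helicase gene Recql4 at -0.84 ± 0.30 (limma adjusted p = 0.343, 0.387 and 0.384). Of 19 other genes of damage signalling 1 was lower, close to the share of all genes, and 0 higher, at a median of -0.26. The lower gene was Rif1, which steers breaks away from resection. It was at 9.45 and 11.02 in wild-type and at 8.08 and 6.60 in Tip110-/- (difference -2.89 ± 0.83, limma adjusted p = 0.345). The checkpoint clamp genes Rad9a, Rad1 and Hus1 did not pass, at -0.59, -0.52 and -0.78.

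Cell cycle genes and lineage markers differed between the same arrays, also without an adjusted call. The counts below stand beside 3.67% of all genes lower and 8.99% higher at the unadjusted mark. Of 17 genes of G2 and mitosis 14 were lower and 0 higher at the unadjusted mark, at a median of -1.93. Of 21 S-phase genes 4 were lower and 0 higher, at a median of -0.76, beside -0.74 for the repair members. The lists are not equally bright: 9 of the 34 repair members were near the gene median on all arrays, and 0 S-phase genes were. For the other 25 repair members the median was -1.16. Markers of the pluripotent epiblast, the embryo's own lineage within an outgrowth, were lower in 9 of 12. None was near the gene median on all arrays. Their summed signal, in log2, came to 18.69 and 18.87 for wild-type, against 17.09 and 15.40 for Tip110-/-. Nearly all of it was Dppa5a, at 18.61 and 18.70 against 17.06 and 15.35, so the sum says little of the other markers. The median difference of the 12 epiblast markers was -2.74, and the difference was negative in all 12. Markers of trophoblast giant cells and placenta were higher in 4 of 13, lower in 0 and near the gene median on all arrays in 1. The 4 were Prl5a1, Prl8a9, Cts7 and Gata2, at differences of 5.64, 5.53, 5.70 and 2.17. Cts7 varied within wild-type, at 10.93 and 4.48. The median difference of the 13 was 0.69. The summed signals of the 13 were 18.65 and 18.01 against 18.71 and 19.82. The bright genes Prl2c2, Krt8 and Krt18 made up most of these sums, and none of these genes passed the unadjusted mark. Primitive endoderm markers were higher in 1 of 11, close to the share of all genes, and lower in 0. The higher marker was Ttr, at 3.80 and 3.70 against 4.08 and 4.21, below the gene median on every array. The summed signals were 9.16 and 7.96 against 8.47 and 8.84. On all arrays 5 of the 11 were near or below the gene median, Ttr, Sox17 and Sox7 among them, while Lama1 was at 8.20 and 5.97 against 6.10 and 7.64. Fibroblast and blood markers, from cells that could accompany an embryo, were all 8 near or below the gene median on every array, with summed signals of 6.62 to 6.98. The part of cell division or of lineage makeup in the difference of the repair genes was not tested.

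**Figure D4:**
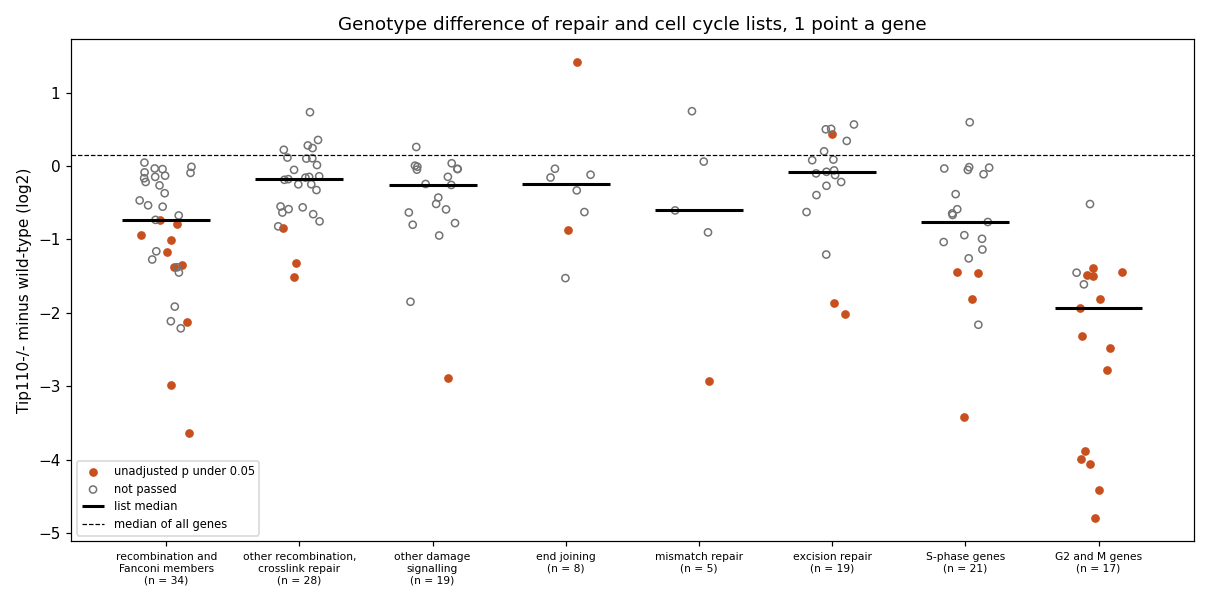
Difference between Tip110-/- and wild-type (log2) for each gene of 8 lists, 1 point a gene, with the list median as a bar and the median of all genes (0.15) as a dashed line; filled points have an unadjusted p under 0.05. The recombination and Fanconi members have a median of -0.74, beside -0.18 for other recombination genes, -0.76 for S-phase genes and -1.93 for genes of G2 and mitosis. Near the gene median on all arrays were 9 of 34 members and 11 of 28 other recombination genes, but 0 genes of the S-phase and G2 and M lists.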

How the data were processed

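RNA of 4 samples, 2 wild-type and 2 Tip110-/- outgrowths, was measured on 1-colour Affymetrix whole-transcript arrays after Pico labelling of 144 pg, per the labels' protocols (the series' design text gives another amount). The authors deposited log2 values for 72688 rows; the log base was inferred from their range, and no detection calls were used. Affymetrix Expression Console and Transcriptome Analysis Console are named in the submitters' processing notes; the normalization is not given in the sources used here, nor is the genome build. Rows were named through the platform annotation: 30604 had 1 symbol, 2146 several and 33206 none, and 6732 were control rows. For 352 genes with several rows the one with the highest mean was kept. Each of 30145 genes was fitted with limma 3.58.1 in R 4.3.3 (lmFit, eBayes with trend, genotype only, two-sided, Benjamini-Hochberg over all genes, threshold 0.05), a fit checked on simulated data. Described in full were members at an unadjusted p under 0.05 or of at least 2-fold without overlap. From other repair lists up to 4 genes with the smallest p under 0.05 are named, while cell cycle lists are given by counts and medians. The clamp genes and all named lineage markers were chosen after their values were seen. The members and lists were chosen with earlier results of these data known. Labels call the samples biological replicates; nothing says which embryos shared a litter. The number of arrays limits the precision. Motif words were searched in RefSeq windows (GRCm38.p6) with Python 3.11.15; the table's 50 bases after the start were left out. Alternatives were 3 normalizations, a filter, 2 variance priors, array weights, a replicate block, row means and each array left out.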

Additional observations from a re-analysis of the deposited data

How the results depend on the processing

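With each array left out in turn, members lower at the unadjusted mark numbered 4 to 12 (2.86% to 4.36% of all genes), members lower without overlap 24 to 27 (21% to 23.3%), members higher without overlap 1 to 3 (52.5% to 56%), where a lone array has to pass only 2 others, and the median difference ran from -0.78 to -0.56. Centring arrays on their gene median gave a median of -0.90, since it moves the median of all genes from 0.15 to -0.02. The counts of lower members under settings that kept all arrays were 8 to 13, with 0 higher; quantile normalization, centring and cyclic loess added Rad51b, Rad52 and Fanci to the 10 and dropped none, while a fit without an intensity trend dropped Palb2 and Atr and array weights dropped Palb2. The 3 normalizations also moved the split of all genes at the unadjusted mark, from 3.67% lower and 8.99% higher to 4.84% and 4.19% under quantile normalization, 6.05% and 3.02% under centring, and 5.11% and 3.89% under cyclic loess. No gene of the table passed the adjusted threshold under any of the 13 settings (limma; 1995 to 5518 at an unadjusted p under 0.05), and the direction of each of the 14 members described in full was kept in all of them. With the replicate number as a block, 13 members were lower at the unadjusted mark, Exo1, Atm and Mdc1 joining the 10, and 0 genes passed adjustment; equal numbers share only pool size, and deviations of same-numbered arrays correlated at -0.09 across genes. Rows near the gene median, 9 members on all arrays and 19 in both mutant arrays, limit what a difference there can show.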

Other observations

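Repair pathways that do not use a homologous copy also held genes past the unadjusted mark, where 3.67% of all genes were lower and 8.99% higher. None passed adjustment. Each list below is short, and its share of lower genes was above that of all genes. Of 8 end joining genes 1 was lower and 1 higher at an unadjusted p under 0.05. Lig4, the ligase that seals joined ends, was at 5.42 and 5.77 in wild-type and at 6.68 and 7.35 in Tip110-/-, higher in both mutant arrays (difference 1.42 ± 0.39, limma adjusted p = 0.343). The gap-filling polymerase gene Poll was at 4.58 and 4.97 in wild-type and at 4.00 and 3.80 in Tip110-/- (difference -0.87 ± 0.21, limma adjusted p = 0.334). Its signal was near or below the gene median on all arrays. Of 5 measured mismatch repair genes 1 was lower: Msh6, which recognises mispaired bases, was at 13.13 and 13.81 in wild-type and at 11.75 and 9.33 in Tip110-/- (difference -2.93 ± 0.91, limma adjusted p = 0.354). Of 19 excision repair genes 2 were lower and 1 higher, at a list median of -0.08. Lig1, the ligase of replication and long-patch repair, differed by -2.02 ± 0.54 and the abasic site nuclease gene Apex1 by -1.87 ± 0.60, while Ercc2, a helicase subunit of TFIIH, differed by 0.43 ± 0.13 from levels below the gene median (limma adjusted p = 0.340, 0.362 and 0.349).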
